A study of Mus musculus with 10 samples.

Results

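Cenpa encodes CENP-A, the histone H3 variant that takes the place of ordinary H3 in the nucleosomes of centromeres. Of 18193 genes with a probe set of their own it is 1, and it was followed here through every probe set that the platform annotation assigns to it alone, 3 of the 45101 on the array. The gene was chosen by its measured response, namely a large rise after kainate in all 3 kainate groups and a lower level in A-CREB mice at 18 mg/kg than in wild-type mice at 14 mg/kg. Those contrasts are therefore described below without a test, and so are the differences among the kainate groups and between the responses, which are built from the same values. For Cenpa a test is given only for the saline contrast between genotypes.

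Centromeric chromatin containing CENP-A recruits the constitutive centromere proteins, and these carry the outer kinetochore that binds spindle microtubules in mitosis. New CENP-A is deposited after mitosis by the chaperone HJURP together with the Mis18 complex, and Cenpa mRNA is best known as a transcript of dividing cells, peaking late in the cycle. Most cells of the hippocampus are neurons that have left the cycle, while progenitors of the dentate gyrus and glia can divide.

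Total hippocampal RNA was hybridised to 10 oligonucleotide arrays, 2 in each of 5 groups. A-CREB mice (TetO-A-CREB-95 C57BL6 F1/J) received saline, kainate at 14 mg/kg or kainate at 18 mg/kg, and wild-type mice (C57BL6 F1/J) received kainate at 14 mg/kg or saline. A-CREB is a dominant-negative protein that pairs with CREB, the cAMP-responsive transcription factor, and keeps it from DNA; kainate is a glutamate receptor agonist that provokes seizures. All mice were 3 weeks old, and the arrays drew on 20 A-CREB and 14 wild-type mice in all. Each array held a pool of 3 to 4 hippocampi, and a p-value therefore speaks of differences between pools, with a precision limited by the small number of arrays. The strain name gives the tetracycline operator in front of A-CREB; the driver of the transactivator, the cells that express the transgene and the time from injection to dissection were not stated in the labels. No wild-type group received 18 mg/kg, so dose and genotype cannot be told apart between A-CREB mice at 18 mg/kg and wild-type mice at 14 mg/kg.

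The arrays had been scaled to a common trimmed mean, but the median signal lay between 94.9 and 106 on the 5 arrays numbered 1 and between 135 and 152 on the 5 numbered 2. Signal was read for 5 genes expressed by hippocampal neurons (Rbfox3, Camk2a, Slc17a7, Snap25 and Wfs1). The lowest signal of any of them on any array was 1696, that of Wfs1. Neurons elsewhere in the brain express these genes too, so the values do not test the hippocampal label. In whole-tissue RNA, fewer cells of a type and less RNA per cell cannot be told apart.

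Cenpa lies on chromosome 5 from 30666877 to 30674837, on the forward strand, in mouse assembly GRCm38.p6. Its promoter is shown from 250 bases before to 30 bases after the transcript start used by the reference table, which lies just inside the outer bound of the gene (RefSeq, GRCm38.p6, chr5:30666636-30666915, forward strand), beside those of the cell-cycle gene Top2a (chr11:99024160-99024439, reverse strand) and of the activity-induced gene Fos (chr12:85473640-85473919, forward strand). They are shown because Cenpa is known as a gene of the first kind. Like genes of the second, it was higher here after kainate, which its choice required. Sequences run 5′ to 3′, and capitals mark every exact match to a searched motif on either strand. The search covered the table's full windows of 300 bases, and no match lay in the 3′ bases not shown.
Cenpa: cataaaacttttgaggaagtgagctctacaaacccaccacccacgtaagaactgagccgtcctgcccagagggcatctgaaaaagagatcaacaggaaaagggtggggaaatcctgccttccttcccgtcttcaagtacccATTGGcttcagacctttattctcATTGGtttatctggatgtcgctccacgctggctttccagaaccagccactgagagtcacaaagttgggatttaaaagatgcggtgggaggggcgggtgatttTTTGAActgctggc
Top2a: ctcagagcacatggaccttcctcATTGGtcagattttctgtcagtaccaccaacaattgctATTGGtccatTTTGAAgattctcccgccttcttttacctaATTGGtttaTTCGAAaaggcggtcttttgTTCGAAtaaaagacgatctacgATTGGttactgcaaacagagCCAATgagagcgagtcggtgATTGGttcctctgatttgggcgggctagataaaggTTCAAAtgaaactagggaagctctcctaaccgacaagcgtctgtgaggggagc
Fos: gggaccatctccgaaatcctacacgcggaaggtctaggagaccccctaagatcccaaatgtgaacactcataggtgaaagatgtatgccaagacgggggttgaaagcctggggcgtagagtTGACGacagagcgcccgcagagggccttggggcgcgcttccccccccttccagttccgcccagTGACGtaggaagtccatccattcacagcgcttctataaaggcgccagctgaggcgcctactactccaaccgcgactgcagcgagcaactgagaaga

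In the Cenpa promoter, the CCAAT box, known from many cell-cycle promoters, matched at positions -109 and -86 from the start, both times on the reverse strand as ATTGG. The CHR element, through which cell-cycle genes are repressed in resting cells (TTTGAA or TTCGAA), matched at position 17 after the start. No match was found in this window for the CREB site CRE (TGACGTCA), for the shorter CRE core (TGACG), for the AP-1 site (TGANTCA) or for the CArG box of serum response factor. The Top2a window held 6 CCAAT boxes and 4 CHR elements, and the Fos window held 2 CRE cores, at -129 and -66. The core is contained in the full CRE, so a full site counts under both.

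Of the 32851 promoters of 300 bases in the reference table, 37.4% held a CCAAT box and 19.2% a CHR element. Among the 38 cell-cycle genes with a promoter in the table, 27 (71.1%) held a CCAAT box and 21 (55.3%) a CHR element. Among the 12 immediate-early genes with a promoter there, 4 (33.3%) held a CCAAT box and 0 a CHR element. The CRE core occurred in 20.8% of all promoters, in 10 of the 38 cell-cycle genes, in 7 of 17 genes of the constitutive centromere, in 7 of 14 of the outer kinetochore and in 10 of the 12 immediate-early genes. The full CRE was found in 1.79% of all promoters, in 1 of the 38, 1 of the 17, 3 of the 14 and 0 of the 12. A gene was counted when any of its promoters held the motif, while the share of all promoters counts each promoter by itself. The AP-1 site was found in 7.81% of all promoters and the CArG box in 1.63%.

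Cenpa mRNA was higher after kainate than after saline in every kainate group, as the choice of the gene required. On the brightest probe set, 1450842_a_at, the deposited signal in A-CREB mice was 163 and 153 after saline, 843 and 868 after 14 mg/kg, and 472 and 537 after 18 mg/kg. In wild-type mice it was 1178 and 1248 after kainate, against 151 and 148 after saline. All 5 groups were separate, with wild-type kainate highest, then A-CREB at 14 mg/kg, A-CREB at 18 mg/kg, A-CREB saline and wild-type saline. The gap between the saline groups was small: the lower A-CREB saline array lay at 153 and the higher wild-type saline array at 151.

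The spread within a group was small beside the distances between kainate and saline groups. The mean signal in A-CREB mice was 158 ± 7.44 after saline, 855 ± 17.3 after 14 mg/kg and 504 ± 46.6 after 18 mg/kg (SD, n = 2 arrays each). The wild-type mean was 1213 ± 49.7 after kainate, against 150 ± 2.21 after saline (SD, n = 2 arrays each). The order of the 5 groups, with no overlap between any of them, was held by 1 of the 13219 tested genes (0.00756%), which was Cenpa itself. Cenpa was chosen partly on this order, and nothing is read from that count.

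**Figure D1:**
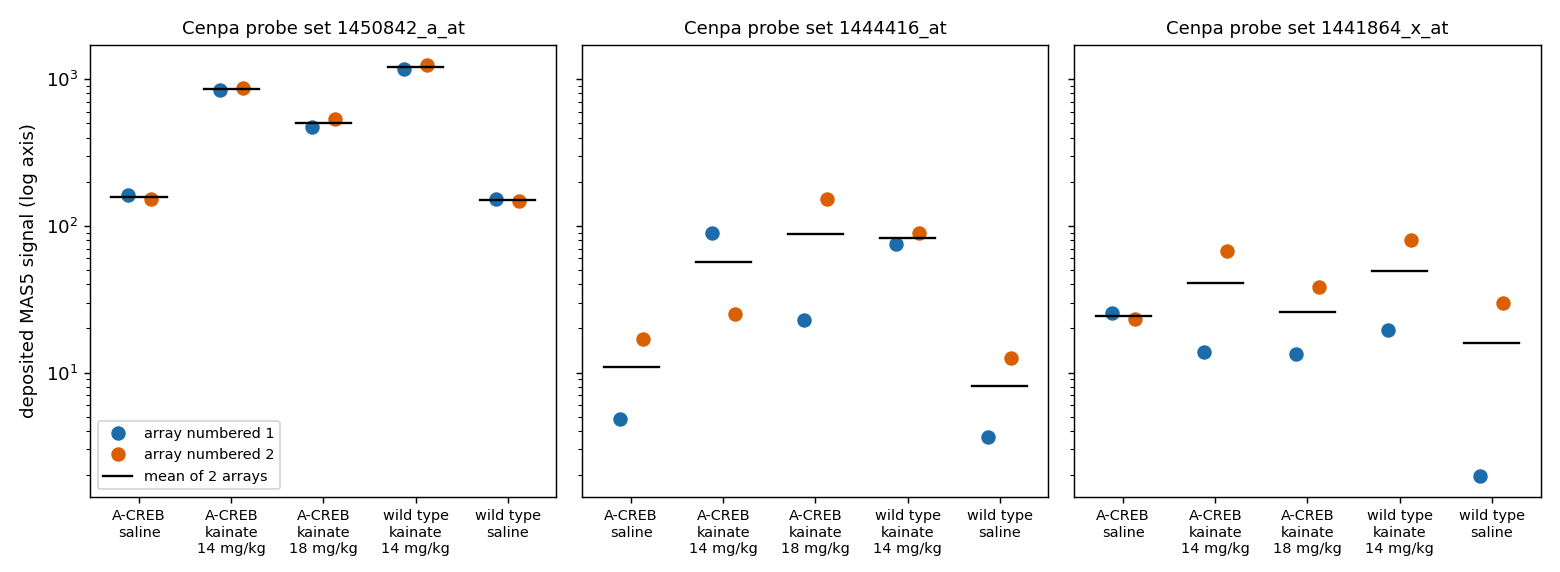
Deposited signal (log axis) of the 3 Cenpa probe sets on the 10 arrays, by group, with points for single arrays and lines for the mean of 2 arrays. On 1450842_a_at the kainate arrays lie between 472 and 1248 and the saline arrays between 148 and 163, while the other probe sets are dimmer and more scattered.

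The remaining Cenpa probe sets were dim, and both fell outside the upper 60% of probe sets by mean level that was tested. Probe set 1444416_at averaged a signal of 49.3 over the 10 arrays. A-CREB arrays read 4.86 and 16.9 after saline, 89.1 and 25.3 after 14 mg/kg, and 22.8 and 153 after 18 mg/kg. Wild-type arrays read 75.6 and 89.1 after kainate, against 3.66 and 12.5 after saline. All 6 kainate arrays were thus above all 4 saline arrays on this probe set, but the kainate groups overlapped and did not show the order seen on the brightest probe set.

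Probe set 1441864_x_at, whose suffix marks probes that may match other transcripts, averaged 31.3. The A-CREB arrays read 25.6 and 23.3 after saline, 13.8 and 67.5 after 14 mg/kg, and 13.3 and 38.0 after 18 mg/kg. The wild-type arrays read 19.5 and 79.8 after kainate, against 1.97 and 29.7 after saline. Kainate and saline arrays overlapped in both genotypes, so the gene's values rest on 1450842_a_at.

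The changes were computed as differences of group means of log2(signal + 22). A-CREB mice at 14 mg/kg differed from saline by 2.28 (95% confidence interval 1.88 to 2.69), a 4.87-fold change on this scale that ranked 28 among the rises of the 13219 genes. At 18 mg/kg they differed from saline by 1.54 (1.14 to 1.95), a 2.92-fold change ranked 49. Wild-type mice at 14 mg/kg differed from saline by 2.84 (2.44 to 3.25), a 7.18-fold change ranked 6. In the mean of the 3 responses Cenpa differed by 2.22 (1.96 to 2.49) and ranked 21. Since the A-CREB responses share their saline arrays, they are given side by side only.

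Few genes were called in these contrasts. By limma, at an adjusted p under 0.05, 41 genes were called in the A-CREB response at 14 mg/kg (0.31%), 31 in that at 18 mg/kg (0.235%), 24 in the wild-type response (0.182%) and 98 in the mean response (0.741%). With the replicate number as a block the shares were 1.26%, 0.696%, 0.711% and 2.9% in the same order. The choice of Cenpa used these contrasts, and nothing is read from its place among these genes. The dim probe sets were fitted without the filter. For A-CREB at 14 mg/kg, A-CREB at 18 mg/kg and wild type at 14 mg/kg, 1444416_at gave differences of 1.16, 1.45 and 1.81, and 1441864_x_at gave 0.28, -0.01 and 0.89.

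Genotype made no detectable difference to Cenpa after saline. A-CREB saline differed from wild-type saline by 0.07 (95% confidence interval -0.33 to 0.47), and the adjusted p was 0.99995 by limma (unadjusted p = 0.717). Both A-CREB saline arrays lay above both wild-type ones, as they did for 8.76% of genes. Differences inside that interval could not be shown with these arrays. The 5 markers of choroid plexus, which borders the hippocampus, had a median of -0.61 in the same contrast, with 4 below 0, and their part in the Cenpa value was not tested.

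After 14 mg/kg kainate, Cenpa was lower in A-CREB mice than in wild-type mice on all arrays. Signals were 843 and 868 in A-CREB mice, against 1178 and 1248 in wild-type mice, a difference of -0.49 (-0.89 to -0.09) or a ratio of 0.711. This difference is one component of the contrast between A-CREB at 18 mg/kg and wild type on which the gene was chosen, so it is a description without a test. Both A-CREB arrays lay below both wild-type arrays for 11.8% of genes. Over all genes limma called 0 in this contrast (0%), and with the replicate block it called 5 (0.0378%). An unadjusted p below 0.05 was found for 168 of the 13219 genes. That is fewer than the share of 0.05 that would arise with no difference in any gene.

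The higher dose went with a lower Cenpa signal in A-CREB mice. The signals of 472 and 537 at 18 mg/kg, against 843 and 868 at 14 mg/kg, gave a difference of -0.74 (-1.14 to -0.34), or a ratio of 0.599. It is the other component of the chosen contrast and is likewise given without a test. The dim probe set 1444416_at went the other way, by 0.29 (-1.16 to 1.74), and 1441864_x_at gave -0.30. Both 18 mg/kg arrays lay below both 14 mg/kg arrays for 7.24% of genes. By limma 0 genes were called (0%). The 75 genes with an unadjusted p below 0.05 were fewer than a share of 0.05 of all genes. All 5 markers of choroid plexus had differences below 0 between the doses, with a median of -0.59 (-0.64 to -0.08), and 0 of them were called. Their part in the Cenpa difference was not tested.

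The response of Cenpa to 14 mg/kg in A-CREB mice differed from that in wild-type mice by -0.56 on the log2 scale (-1.13 to 0.01). Both responses were used in the choice, so their difference is a description. Over all genes limma called 0 for this interaction and for the saline contrast (0%), and the block also gave 0. The 96 and 195 genes with an unadjusted p below 0.05 were fewer than a share of 0.05 of all genes. Between A-CREB at 18 mg/kg and wild type at 14 mg/kg, one of the contrasts used in the choice, Cenpa differed by -1.23 (-1.63 to -0.83), a ratio of 0.426. The choroid plexus markers differed in that contrast by a median of -0.69, with 5 of 5 below 0. The 8 microglial markers differed there by a median of 0.51, with 7 above 0. Between the genotypes at 14 mg/kg the microglial median was 0.50, with 8 above 0. The part of either set of markers in the Cenpa values was not tested.

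In A-CREB mice, kainate and saline arrays overlapped for Mki67 and for Top2a, both known from dividing cells. Mki67, which encodes the proliferation antigen Ki-67, was dim and not among the tested genes. Its signal in A-CREB mice was 60.2 and 31.2 after saline, 53.9 and 53.5 after 14 mg/kg, and 66.6 and 49.5 after 18 mg/kg. The wild-type signals were 72.9 and 10.9 after kainate, against 84.4 and 126 after saline. The A-CREB groups overlapped at both doses, and both wild-type kainate arrays lay below both wild-type saline arrays. Fitted without the filter, Mki67 differed by 0.20 (-0.99 to 1.38) in A-CREB at 14 mg/kg, by 0.27 (-0.92 to 1.45) in A-CREB at 18 mg/kg and by -1.17 (-2.36 to 0.02) in wild type.

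Top2a, the DNA topoisomerase of replicating and mitotic chromosomes, was brighter. In A-CREB mice it read 142 and 215 after saline, 137 and 298 after 14 mg/kg, and 188 and 231 after 18 mg/kg. In wild-type mice it read 162 and 175 after kainate, against 122 and 293 after saline. Kainate and saline arrays overlapped in every case. The differences in A-CREB were 0.19 (-0.79 to 1.18) after the lower dose and 0.23 (-0.76 to 1.21) after the higher. They were -0.16 (-1.14 to 0.82) in wild type and 0.09 (-0.57 to 0.74) in the mean response, where Cenpa's was 2.22. With the replicate block the interval of Top2a in the mean response was -0.31 to 0.48.

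**Figure D2:**
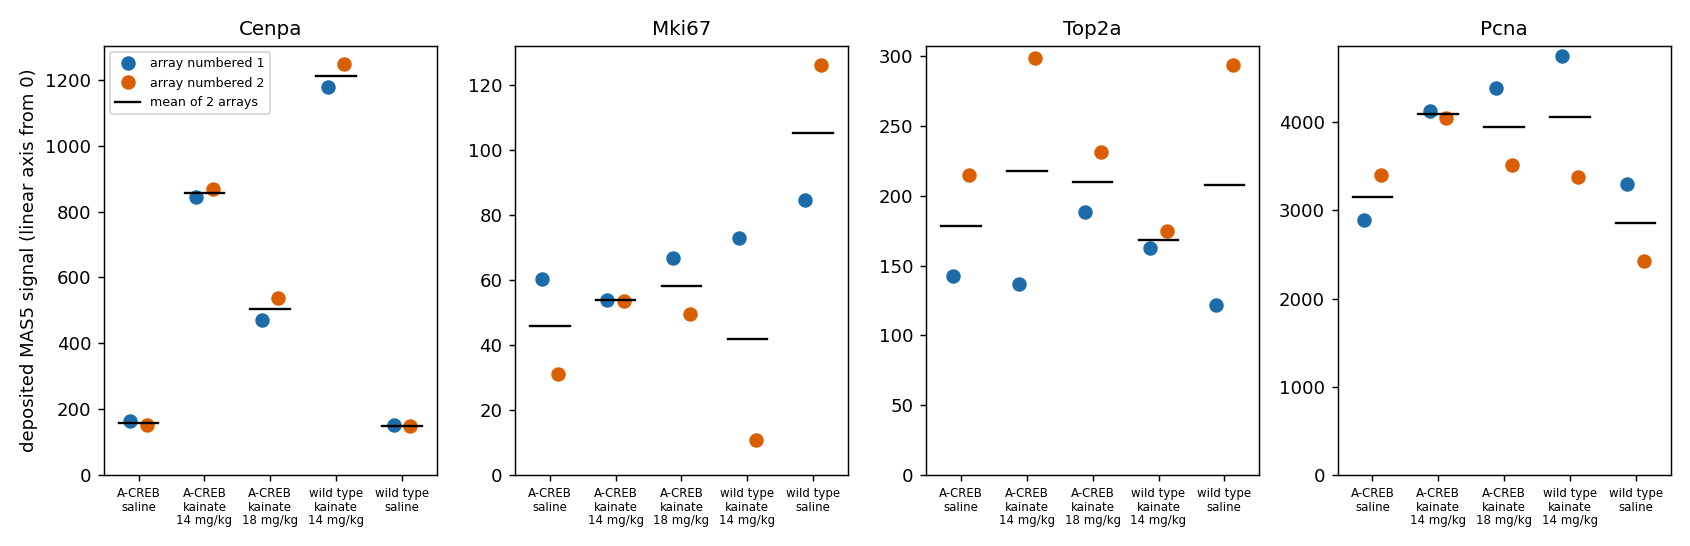
Deposited signal (linear axes from 0) of Cenpa, Mki67, Top2a and Pcna on the 10 arrays, by group, with lines for the mean of 2 arrays. The kainate arrays of Cenpa, at 472 or more, stand apart from its saline arrays, while over all groups those of Mki67 and Top2a overlap widely with saline and those of Pcna run from 3379 to 4746 beside 2422 to 3403 after saline.

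Of 50 listed cell-cycle genes, 49 had a probe set of their own and 36 passed the filter on low levels; 13, Mki67 among them, did not. By limma 0 of the 36 were called in any of the 3 responses or in their mean, with or without the replicate block, with 1, 1, 2 and 2 genes at an unadjusted p under 0.05 in A-CREB at 14 mg/kg, A-CREB at 18 mg/kg, wild type at 14 mg/kg and the mean. Over the 13219 genes 660, 369, 466 and 975 were under 0.05, and the shares called were 0.31%, 0.235%, 0.182% and 0.741%, so that a count of 0 among 36 is close to the background and is no result about the list. Their median difference was 0.02, 0.16, -0.15 and -0.02 in the same order, beside -0.02, 0.00, -0.05 and -0.02 over all genes tested. In the mean response the 36 ran from -0.39, that of Cdc20, an activator of the anaphase-promoting complex, to 0.40, that of Prc1, a protein of the central spindle. Without the filter 0 of the 49 were called, and the highest single change was 0.82 in A-CREB at 14 mg/kg, 1.22 in A-CREB at 18 mg/kg and 0.52 in wild type.

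The cell-cycle genes with the smallest p in the mean response were Anln, Pcna, Cdc20, Ccne2 and Prc1. Anln, the cytokinesis protein anillin, read 640 and 720 in A-CREB mice after saline, 822 and 1135 after 14 mg/kg, and 893 and 1031 after 18 mg/kg. Wild-type arrays read 794 and 882 after kainate, against 769 and 674 after saline. Its 6 kainate arrays were above its 4 saline arrays. The share of all genes with such separate arrays was not counted, here or for the other listed genes. Its mean difference was 0.40 (0.10 to 0.70), with an adjusted p by limma of 0.464 without the replicate block and 0.0826 with it.

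Pcna, the sliding clamp of DNA replication, read 2894 and 3403 in A-CREB mice after saline, 4130 and 4050 after 14 mg/kg, and 4385 and 3513 after 18 mg/kg. In wild-type mice it read 4746 and 3379 after kainate, against 3298 and 2422 after saline. It was higher after kainate within each genotype, with a mean difference of 0.40 (0.07 to 0.73). Its adjusted p by limma was 0.543 without the replicate block and 0.0776 with it. Ccne2, a cyclin of the start of S phase, differed by -0.37.

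The summed signal of the 49 cell-cycle genes in A-CREB mice was 20964 to 21499 after saline, 23660 to 25724 after 14 mg/kg and 23487 to 26069 after 18 mg/kg, so that kainate arrays were above saline arrays. In wild-type mice the groups overlapped, at 21657 to 24791 after kainate, against 23114 to 24509 after saline. Stmn1, a tubulin-binding protein that is also abundant in young neurons, and Pcna were the brightest members. Without those 2 the sum of the other 47 was 6743 to 9431 after saline in A-CREB mice, 7532 to 9201 after 14 mg/kg and 8076 to 9942 after 18 mg/kg, and the groups overlapped. The wild-type sum was 7319 to 8563 after kainate, against 7488 to 10892 after saline. The part of dividing cells in the Cenpa signal was not tested beyond these values.

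Of the tested genes whose proteins work with CENP-A at the centromere, none was called on its brightest probe set without the replicate block, at background shares of 0.182% to 0.741%. Of 17 genes of the constitutive centromere 11 were tested and 0 called, with medians of 0.00 in A-CREB after the lower dose, 0.26 after the higher dose, 0.02 in wild type and 0.10 in the mean. The member with the smallest p was Cenpq, a subunit of the centromere-associated network, at 0.40 (adjusted p = 0.642 by limma). Itgb3bp (CENP-R) and Cenpn, a reader of CENP-A nucleosomes, both differed by 0.24, Cenpx by 0.15 and Cenpt, which links DNA to the outer kinetochore, by 0.13.

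Of 18 outer kinetochore genes 13 were tested and 0 called, with a median of 0.11 in the mean response. With the probe sets of each gene averaged, Zwint, a kinetochore protein, was called in the mean response at 0.69 (adjusted p = 0.0366 by limma), against 0.14 on its brightest probe set. Mis12, a scaffold of the microtubule-binding network, differed by -0.39 (adjusted p = 0.523), Zwilch by -0.35, Ska2 by -0.29 and Zw10 by 0.15. Pmf1, a partner of Mis12, differed by -0.06 in A-CREB at 14 mg/kg and by -0.42 at 18 mg/kg. In wild-type mice it read 13.9 and 41.9 after kainate, against 112 and 138 after saline, a difference of -1.61 with an adjusted p = 0.99993 by limma; with the replicate block it was called as lower (adjusted p = 0.0236). It differed by -0.70 in the mean response (adjusted p = 0.787).

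Of 15 genes that deposit or remodel CENP-A chromatin 12 had a probe set of their own and 11 were tested. By limma 0 of the 11 were called, with a median of -0.03 in the mean response. Smarca5, the ATPase of ISWI remodelling complexes, read 1427 and 1079 in A-CREB mice after saline, 2214 and 1658 after 14 mg/kg, and 2111 and 1524 after 18 mg/kg. Wild-type arrays read 1991 and 1431 after kainate, against 1626 and 1166 after saline. All A-CREB kainate arrays were above the A-CREB saline arrays, and the wild-type groups overlapped. Smarca5 differed by 0.62 in A-CREB at 14 mg/kg, with an adjusted p = 0.0372 by limma with the replicate block and 0.978 without it. In the mean response it differed by 0.48, with an adjusted p = 0.00931 with the block and 0.554 without it.

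Rbbp7, a histone-binding protein of several chromatin complexes, differed by 0.30 (adjusted p = 0.471) in the mean response. Ruvbl1, a AAA ATPase, differed by -0.24, Mis18a, a subunit of the Mis18 complex, by -0.20 and Rsf1 by -0.08. Of 13 genes for other H3 variants and their chaperones 11 were tested and 0 called, with a median of -0.04, a lowest difference of -0.37 and a highest of 0.34. In the single responses the highest difference of any tested member of the cell-cycle, centromere, kinetochore, deposition and H3 lists was 0.69.

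**Figure D3:**
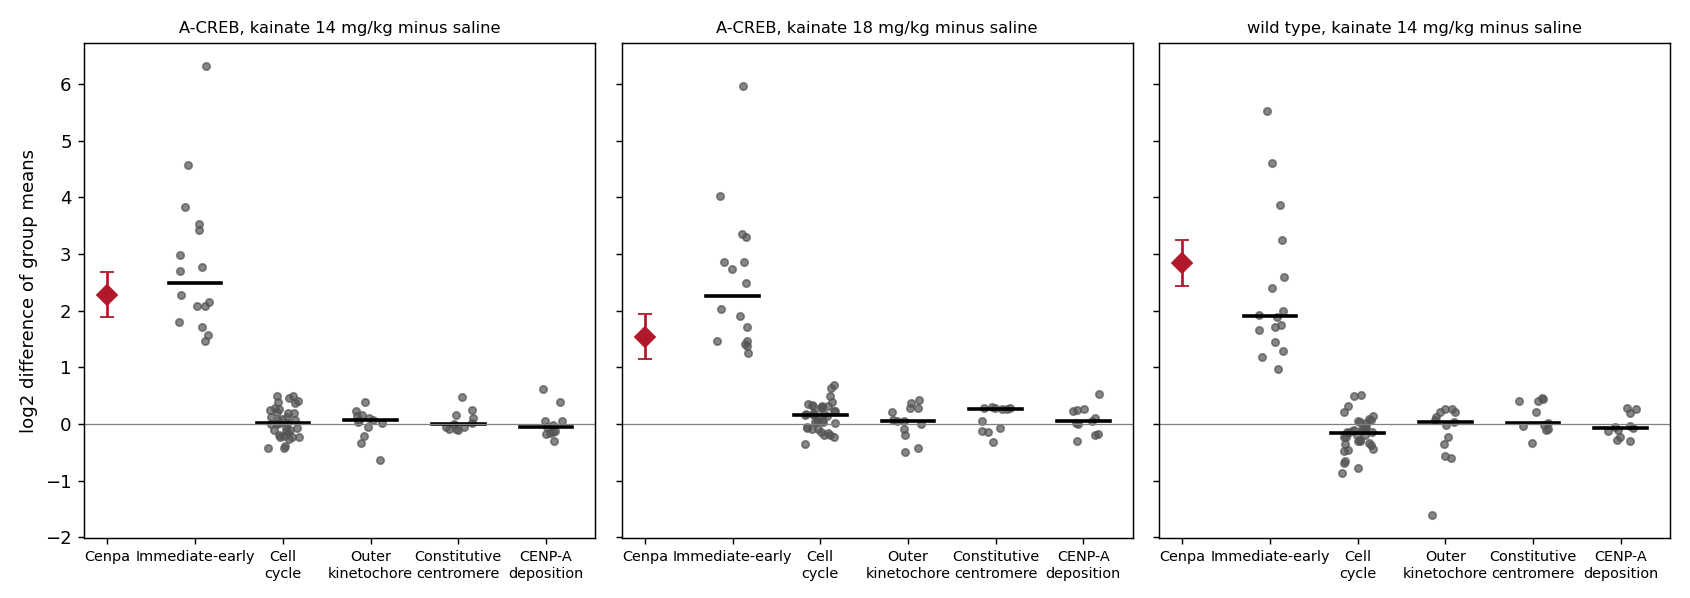
Log2 differences between kainate and saline in each kainate group for Cenpa (diamond, 95% confidence interval) and for the tested members of 5 gene lists (points), with bars for list medians. Cenpa lies among the immediate-early genes at 2.28, 1.54 and 2.84. The medians of the other lists lie between -0.15 (cell cycle, wild type) and 0.26 (constitutive centromere, A-CREB at 18 mg/kg).

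Markers of cell types that can divide or enter the tissue were also read. In the mean response 0 of 7 tested neural progenitor markers, 0 of 7 of immature neurons, 0 of 6 of oligodendrocyte precursors, 0 of 8 of microglia, 0 of 6 of endothelium, 0 of 5 of choroid plexus and 0 of 1 of blood were called by limma, with medians of 0.13, -0.04, -0.11, 0.12, -0.14, 0.19 and -0.56. A count of 0 among so few genes is close to the 0.741% called over all genes. In the mean response 1 marker, of endothelium, had an unadjusted p under 0.05, as did 975 of the 13219 genes. In A-CREB at 14 mg/kg 2 of the 5 choroid plexus markers were under 0.05, and the median of the 5 was 0.53, with 5 of 5 above 0. The summed choroid plexus signal in A-CREB mice was 25726 to 32159 after saline, 29344 to 38662 after 14 mg/kg and 23982 to 38678 after 18 mg/kg. The wild-type sum was 30084 to 43263 after kainate, against 28876 to 31377 after saline. These sums were mostly Ttr, with a mean log2 level of 14.67 in A-CREB mice after saline, against 9.92 for Clic6, the next brightest marker. They therefore say little about the other choroid plexus markers. The summed progenitor signal in A-CREB mice was 7801 to 10732 after saline, 9400 to 10749 after 14 mg/kg and 9767 to 10197 after 18 mg/kg. The wild-type sum was 7123 to 8461 after kainate, against 7536 to 9172 after saline, and kainate and saline overlapped in both genotypes.

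The sum of the 8 microglial markers in A-CREB mice was 10428 to 12000 after saline, 11662 to 14537 after 14 mg/kg and 12542 to 14100 after 18 mg/kg. In wild-type mice it was 9025 to 9417 after kainate, against 10227 to 10493 after saline. At 14 mg/kg the A-CREB kainate and saline arrays overlapped, and at 18 mg/kg they did not. Its part in the Cenpa values was not tested.

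Immediate-early genes are those that neurons switch on within minutes of strong activity. All 16 listed immediate-early genes rose in the mean response (adjusted p up to 0.0263, that of Egr3, by limma), with a median of 2.27 and a range from 1.34 for Egr1 to 5.94 for Npas4, an activity-dependent transcription factor. In A-CREB mice 11 were called as higher at 14 mg/kg and 8 at 18 mg/kg, and in wild-type mice 7 were. All 16 lay above 0 in every response, and the lowest change in wild type was 0.96, that of Egr1. Over all genes tested 0.31%, 0.235% and 0.182% were called in these responses and 0.741% in the mean. With the replicate block the counts were 16, 16 and 14, beside 1.26%, 0.696% and 0.711% of all genes. The list was chosen with earlier results of these data known. Fos, a subunit of AP-1, read 1493 and 1688 in A-CREB mice after saline, 20356 and 16820 after 14 mg/kg, and 15194 and 16466 after 18 mg/kg. In wild-type mice Fos read 18480 and 16432 after kainate, against 2293 and 1417 after saline, and no kainate array overlapped a saline array.

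Cenpa's change, on which it was chosen, exceeded that of 8 of the 16 in A-CREB at 14 mg/kg, of 5 in A-CREB at 18 mg/kg and of 12 in wild type. Between A-CREB and wild-type mice at 14 mg/kg the 16 ranged from 0.04 for Egr1 to 0.82 for Egr2, all above 0, where Cenpa was at -0.49. Between 18 and 14 mg/kg in A-CREB mice they ranged from -0.62 for Egr4 to 0.09 for Ier2, 15 of 16 below 0, where Cenpa was at -0.74. These differences add up to the contrast used in the choice of Cenpa, so its place outside the range of the list is partly set by that choice. None of the 16 was called in either contrast, where 0% of all genes were called by limma, and the difference between Cenpa and the list was not tested.

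In the interaction the 16 ranged from -0.78 for Atf3, a stress-induced transcription factor, to 1.69 for Egr2, where Cenpa was at -0.56. Between A-CREB at 18 mg/kg and wild type at 14 mg/kg they ranged from -0.48 for Egr4 to 0.48 for Ier2. The summed signal of the list in A-CREB mice was 21792 to 27508 after saline, 112892 to 133697 after 14 mg/kg and 82919 to 125547 after 18 mg/kg, with overlap between the doses. The wild-type sum was 106526 to 107546 after kainate, against 25739 to 34424 after saline.

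**Figure D4:**
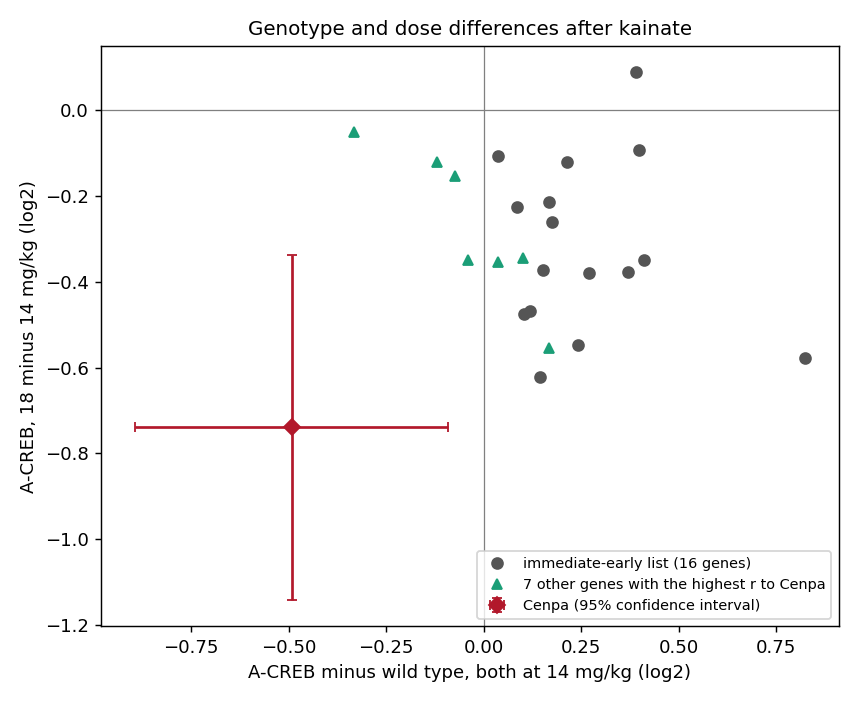
Log2 difference between A-CREB and wild type at 14 mg/kg (horizontal axis) against that between 18 and 14 mg/kg in A-CREB mice (vertical axis), for Cenpa (diamond, 95% confidence intervals), the 16 immediate-early genes (circles) and 7 further genes most like Cenpa (triangles). Cenpa lies at -0.49 and -0.74; the axes add up to the contrast on which it was chosen, so its position is a description.

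The 8 genes whose log2 signal followed Cenpa most closely over the 10 arrays were Gmppb, B3gnt2, Csrnp1, Egr4, Pcdh8, Dusp4, Arid5b and 1700086L19Rik. Pearson's r ran from 0.97 for Gmppb, an enzyme that makes GDP-mannose, to 0.95 for 1700086L19Rik. After the mean of the arrays of each replicate number was taken out, r for these genes ran from 0.95 for Arid5b to 0.99 for Gmppb. The arrays share the group structure, so any gene that is high after kainate and low after saline scores highly, and the changes of these 8 over the same arrays are described without a test. The immediate-early list had a median r of 0.90 (0.82 to 0.96), the cell-cycle list -0.08 (-0.56 to 0.71) and all tested genes -0.07.

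The changes of these genes were of different size. Csrnp1, a nuclear transcription factor, differed by 2.13 and 1.78 in A-CREB after the lower and the higher dose, and by 2.26 in wild type at 14 mg/kg. Pcdh8, a protocadherin induced by neuronal activity, differed by 1.95, 1.61 and 1.88 in the same groups. Gmppb differed by 0.63, 0.51 and 0.79. B3gnt2, a glycosyltransferase, and Arid5b, a DNA-binding protein, differed by 0.50 and 0.58 in the mean response. Dusp4, a phosphatase of MAP kinases, differed by 1.28 and 1700086L19Rik by 1.59 there.

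Between A-CREB and wild-type mice at 14 mg/kg, 1700086L19Rik differed by -0.33, Gmppb by -0.12, B3gnt2 by -0.07 and Csrnp1 by -0.04, and the other 4 lay above 0. Each of the 8 was lower at 18 than at 14 mg/kg in A-CREB mice, from -0.62 for Egr4 to -0.05 for 1700086L19Rik. They were chosen for following Cenpa over these arrays, so that shared direction is a description.

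The genes around Cenpa on chromosome 5 were also read. The 3 protein-coding genes on each side are Cib4, Kcnk3 and Slc35f6 before it, and Dpysl5, Mapre3 and Tmem214 after it. Cib4, which starts at 30485583, was dim, between 3.72 and 40.8 on all arrays, and was not tested. Of the other 5, limma called 0 in any response, with 0 at an unadjusted p under 0.05. With 0.182% to 0.741% of all genes called, that count is close to the background and is no result about the neighbours. The nearest, Slc35f6, a solute carrier gene 7148 bases away, read 595 and 473 in A-CREB mice after saline, 561 and 412 after 14 mg/kg, and 516 and 524 after 18 mg/kg. Wild-type arrays read 518 and 538 after kainate, against 577 and 453 after saline, and the groups overlapped in both genotypes.

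In the mean response Slc35f6 differed by -0.04 (-0.37 to 0.29). Dpysl5, a collapsin response mediator 36727 bases away, differed by -0.01 (-0.51 to 0.48). Kcnk3, a potassium channel 41607 bases away, differed by -0.47 (-1.74 to 0.81), Mapre3, a microtubule end-binding protein, by -0.27 (-0.78 to 0.24) and Tmem214 by 0.01 (-0.30 to 0.33).

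**Figure D5:**
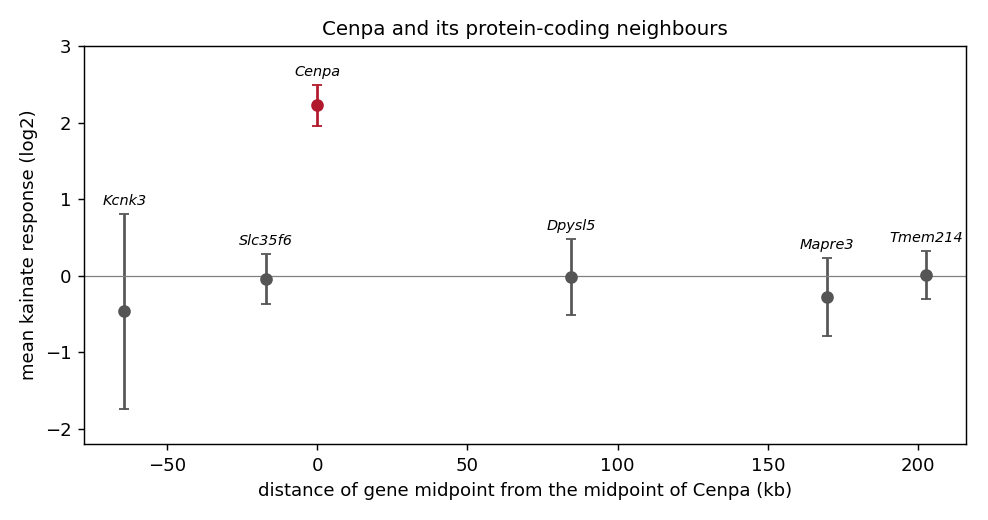
Mean kainate response (log2, with 95% confidence intervals) of Cenpa and of the 5 tested neighbours, by distance of the gene midpoints in kilobases. Cenpa is at 2.22 and the neighbours lie between -0.47 and 0.01.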

How the data were processed

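Each of the 10 arrays (Affymetrix Mouse430_2) held pooled hippocampal RNA, per the labels' protocols. The deposited values are intensity, the linear MAS5 signal of each probe set, made with MAS5 in GCOS per the submitters' processing notes; their versions were not stated there. Of 45101 probe sets, 64 were controls, 34945 named 1 gene, 932 several and 9160 none in the platform annotation.

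The analysis used log2(signal + 22), a pseudocount set at the 20th percentile of the signals, which lowers the fold of dim genes. Probe sets in the upper 60% by mean log2 level were tested, and 13219 genes were each represented by their brightest probe set. All arrays were fitted with limma 3.58.1 in R 4.3.3 (group terms only, intensity trend, 5 residual degrees of freedom, two-sided tests). P-values were adjusted by Benjamini-Hochberg over all genes, with a threshold of 0.05. The procedure was also run on simulated data with independent noise on each array. That simulation held no deviation shared by same-numbered arrays, so it does not cover that feature of the real arrays.

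Same-numbered arrays deviated together in all 10 pairs of groups (r 0.52 to 0.64). A replicate block was therefore fitted as an alternative, from the data and not the labels. Intervals and p-values come from the fit without the block unless the block is named. That fit does not remove the shared deviation, which stays in its residual spread. In the mean response 98 genes were called without the block and 383 with it. The block is given mainly where it changes a reported call. Cenpa and all lists were chosen with earlier results of these data known. Named genes are Cenpa, Mki67, Top2a, up to 5 members of the cell-cycle, centromere, deposition and immediate-early lists by smallest p in the mean response, list members called in a response, 6 neighbours and the 8 genes with the highest r; others named stand at the end of a range. Promoter sequences are from RefSeq.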

Additional observations from a re-analysis of the deposited data

How the results depend on the processing

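On 1450842_a_at, the direction of each Cenpa difference held under every alternative that gave a value: other pseudocounts, filters, normalizations, variance models, probe-set rules, only the groups compared, a replicate block and the removal of single arrays. Without probe sets of the suffixes _s_at, _x_at and _a_at, Cenpa had no tested probe set and no value. The dim probe sets did not all share these directions: 1444416_at gave 0.29 between the doses, and 1441864_x_at gave -0.01 for A-CREB at 18 mg/kg against saline. Signals near the pseudocount limit what dim genes can show. With a pseudocount of 88 the Cenpa changes were 1.94 in A-CREB at 14 mg/kg, 1.27 at 18 mg/kg and 2.45 in wild type. Leaving out each array gave 2.24 to 2.33, 1.45 to 1.64 and 2.80 to 2.88 for these changes, and -1.32 to -1.14 for A-CREB at 18 mg/kg against wild type. It gave 0.02 to 0.11 for the saline genotype difference, -0.53 to -0.45 for the genotype difference at 14 mg/kg, -0.83 to -0.65 between the doses and -0.60 to -0.52 for the interaction. With the replicate block 1 deposition gene was called in A-CREB at 14 mg/kg and in the mean response (Smarca5), and 1 outer kinetochore gene in wild type (Pmf1); the block changed no other call on a list member named in the mean response. With probe sets averaged per gene 1 outer kinetochore gene was called in the mean response, Zwint, at 0.69 (adjusted p = 0.0366 by limma), against 0.14 on its brightest probe set. The count of immediate-early genes called in the mean response was 13 to 16 without single arrays. Mean responses near 0 changed sign. Cenpn gave -0.00277 with the mean of its probe sets. Slc35f6 gave 0.017 and 0.021, and Dpysl5 0.035 and 0.044, with quantile and cyclic loess normalization. Without single arrays Top2a ran from -0.10 to 0.28, Cenpn from -0.083 to 0.57, Cenpt from -0.051 to 0.30, Mapre3 from -0.61 to 0.068, Kcnk3 from -1.12 to 0.19, Slc35f6 from -0.15 to 0.066, Tmem214 from -0.069 to 0.094 and Dpysl5 from -0.37 to 0.34. The cause of these changes was not tested.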
